A study of Mus musculus with 18 samples.

Results

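Whole lung from mice with induced cyclin E1 (CCNE-TA, 3 libraries) was compared with whole lung from control mice (TA, 3 libraries), using all 6 lung libraries of a series of 18 that also covers liver and kidney. The libraries were taken by their labels. All mice were C57BL/6. CCNE-TA mice carried a tetracycline-inducible Ccne1 transgene and rtTA, an activator that works only in the presence of doxycycline, and TA mice carried rtTA without the transgene. Both genotypes received doxycycline from 3 weeks of age and were 4 months old at sampling, so the activator and the drug were common to both groups. The promoter that drives rtTA is not given in the sources used here, so the lung cells that make the transgene are not known. The labels number the libraries 1 to 3 without saying how they relate to animals, so p-values measure only the spread between these samples, which may be partly technical. Of the 24062 gene symbols counted, 16823 passed the low-count filter in lung and were tested. Among these, 184 were set apart as liver-high, meaning a level in TA liver at least 100 times that in lung, in CPM (counts scaled to each library's total), and 16639 remained.

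Cyclin E1 binds and activates the kinase CDK2 late in G1, when RB-family proteins are phosphorylated and E2F factors are released to switch on genes for DNA synthesis. Genes that run mitosis are switched on later in the cycle, largely through the MuvB complex with B-MYB and FOXM1. Their promoters often hold short elements called CHR and CCAAT boxes. Adult lung is a slowly renewing organ of alveolar, airway, endothelial, stromal and immune cells, and most of its epithelium is out of the cycle at any time.

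Total counts ran from 41597623 in TA 3 to 155323865 in CCNE-TA 1, so 3 counts corresponded to between 0.0193 and 0.0721 CPM. The tissue label held in every library: alveolar type 2 genes summed to between 29688.5 and 41844.7 CPM and capillary endothelial genes to between 8428.6 and 10809.5 CPM. CCNE-TA 1 and TA 3 stood apart from the other 4 libraries on the first principal component, which held 53.5% of the variance, and this component did not separate the genotypes. Xist was between 431 and 720 CPM in replicates 1 and 2 of both groups and at most 1.41 CPM in CCNE-TA 3 and TA 3, where Ddx3y of the Y chromosome was 41.2 and 54.4 CPM, so each group held 1 male-pattern library. In such bulk RNA, fewer cells of a type and less RNA per cell cannot be told apart.

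Ccne1 was high in every CCNE-TA lung and low in every TA lung. Its level was 125, 65.7 and 75.2 CPM in CCNE-TA 1, 2 and 3, and 3.72, 6.02 and 1.04 CPM in TA 1, 2 and 3. All 3 induced lungs lay above all 3 controls, with the highest value in CCNE-TA 1 and the lowest in TA 3. The log2 fold change was 4.61 ± 0.67 (SE, n = 3 per group). The test fitted to the lung libraries alone, the quasi-likelihood F test of edgeR, gave an unadjusted p of 0.000331 and an adjusted p of 0.897, and the two-sided exact permutation test gave p = 0.1, the smallest that 3 against 3 allows. DESeq2 on the same 6 libraries gave an adjusted p of 1.3e-12 for Ccne1, and an edgeR fit of all 18 libraries gave 0.000628. The count covers the transgene and the endogenous gene (chromosome 7, 38097984 to 38107534, minus strand, mm10) together. Ccne1 reached 210 to 439 CPM in CCNE-TA liver and 477 to 965 CPM in CCNE-TA kidney, scaled by total counts, against 65.2 to 129 CPM in lung on the same scale. The fold change in lung was smaller than in liver by 2.22 ± 0.62 log2 units (edgeR, adjusted p = 0.0316), and smaller than in kidney by a difference of -3.82 ± 0.64 that did not pass the correction in edgeR (adjusted p = 0.116) and passed in DESeq2 (adjusted p = 1.38e-06). Over all 17155 genes of the fit of 18 libraries, the lung effect was higher than the liver effect for 6.51% and lower for 6.23%.

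**Figure D1:**
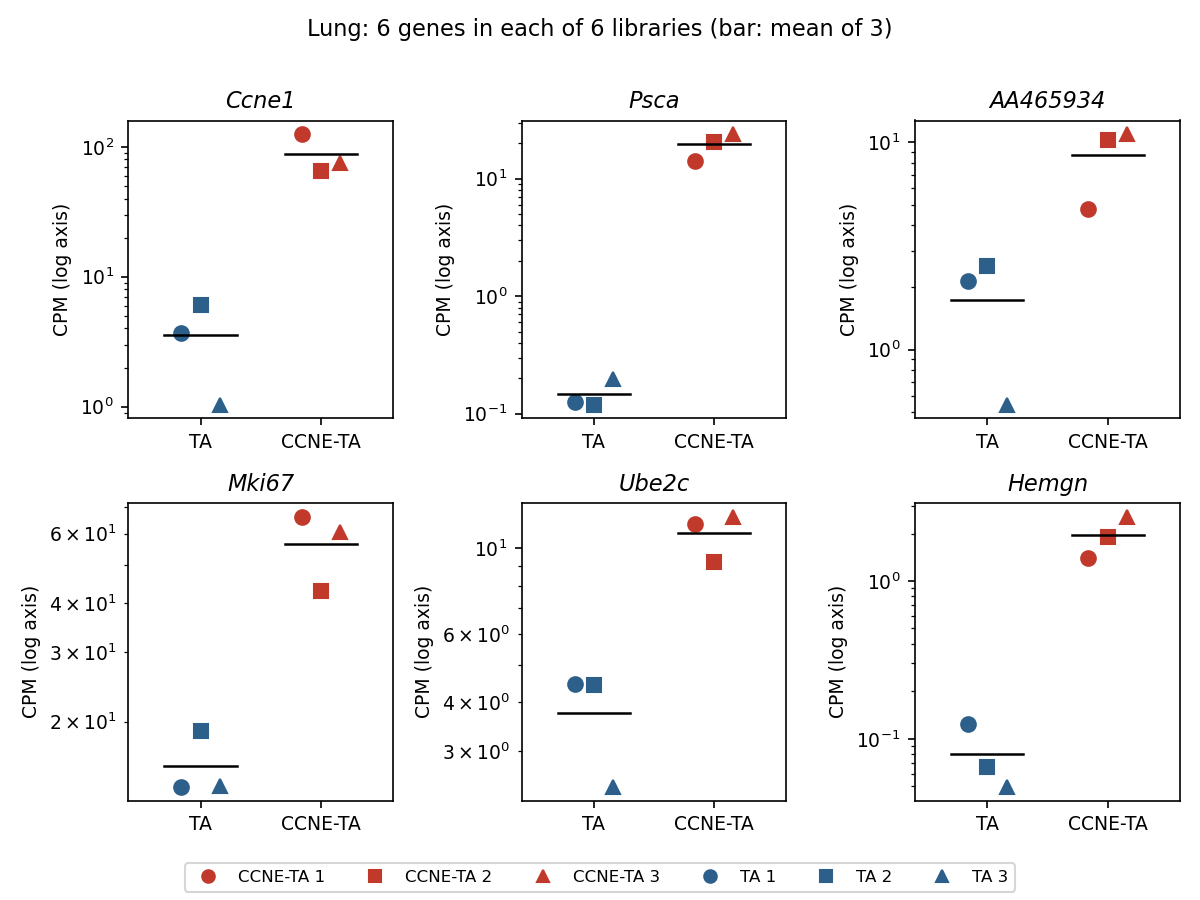
Level of 6 genes in each lung library, in CPM on log axes, with the TA libraries in blue, the CCNE-TA libraries in red, marker shapes for replicates 1 to 3 and a bar at the mean of 3. In all 6 genes the CCNE-TA libraries lie above the TA libraries, from a mean of 88.8 against 3.59 CPM for Ccne1 to 1.95 against 0.0802 CPM for Hemgn.

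Psca rose in lung, and it was the only gene of the 16823 that passed the edgeR test at an adjusted p under 0.05, which is 0.00594% of the genes tested. Psca encodes prostate stem cell antigen, a small surface protein of the Ly6 family held by a lipid anchor. Its level was 14.2, 20.5 and 24 CPM in CCNE-TA 1, 2 and 3, and 0.125, 0.119 and 0.197 CPM in TA 1, 2 and 3. The induced lungs were high in all 3 and the controls were close to the lower limit of the counts in all 3, so the groups were far apart. The log2 fold change was 7.09 ± 0.36 (SE, n = 3 per group; adjusted p = 0.00928). The log2 fold change stayed between 6.91 and 7.30 when any 1 library was left out, but the edgeR call was kept only without CCNE-TA 1 and was lost without any of the other 5, with adjusted p up to 0.168. Without both libraries that stood apart it was 7.49 (adjusted p = 0.00187), again the only call, 0.00593% of the genes tested there. No base of the Psca exons (chromosome 15, 74714839 to 74717069, plus strand, mm10) is shared with another annotated gene.

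The Psca effect in lung differed from that in kidney. In kidney Psca was already present in controls, at 57.7 to 72.8 CPM in TA against 62.3 to 128 CPM in CCNE-TA, and the kidney fold change was 0.48 on the log2 scale. The difference of the 2 effects, lung minus kidney, was 6.62 ± 0.57 (adjusted p = 0.000204), and it was the only 1 of 17155 genes (0.00583%) whose lung effect differed from the kidney effect in edgeR. DESeq2 gave no adjusted p for this difference. In liver Psca was at 0 counts in the 3 TA libraries and at 0.211 to 0.785 CPM in CCNE-TA. The difference of effects, lung minus liver, was -1.66 ± 1.81 and did not pass in edgeR (adjusted p = 0.569). Kidney RNA was measured beside this through Kap, an abundant transcript of the proximal tubule: Kap was 0 in CCNE-TA 1 and in all TA lungs, 0.0914 CPM in CCNE-TA 2 and 13.8 CPM in CCNE-TA 3, the last being 0.0344% of its mean in TA kidney. On the same scale Psca was 14.6, 20.4 and 24.1 CPM in CCNE-TA 1, 2 and 3. Squamous epithelial genes, of which 13 were tested, summed to 3309.7, 128.1 and 32.6 CPM in CCNE-TA 1, 2 and 3 and to 37.4, 24.7 and 5578.7 CPM in TA 1, 2 and 3. The part of kidney or squamous tissue in the Psca values was not tested.

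Beyond Psca, the number of calls depended on the tool, and in DESeq2 and the fit of 18 libraries more genes were called lower than higher. DESeq2 called 15 genes higher (0.0899% of 16689) and 168 lower (1.01%). The edgeR fit of 18 libraries called 6 higher (0.035% of 17155) and 88 lower (0.513%). limma-voom called none in either direction, and the edgeR fit of lung alone called none lower; at an unadjusted p under 0.05 the latter had 180 genes higher (1.07%) and 434 lower (2.58%). limma-voom with quality weights called 4 higher, Psca, Ccne1, Hemgn and Mki67, and 5 lower. The genes called lower by DESeq2 and by the fit of 18 libraries were mainly liver transcripts, as described further on. In the latter, the 88 lower calls became 2, 3 and 6 without CCNE-TA 2, CCNE-TA 3 and TA 3, and 111 to 174 without CCNE-TA 1, TA 1 or TA 2, while 2 to 6 were called higher. The 6 called higher by the fit of 18 libraries were Psca, Ccne1, Slc4a1, Hemgn, AA465934 and Mki67, and all 6 were also called higher by DESeq2.

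**Figure D2:**
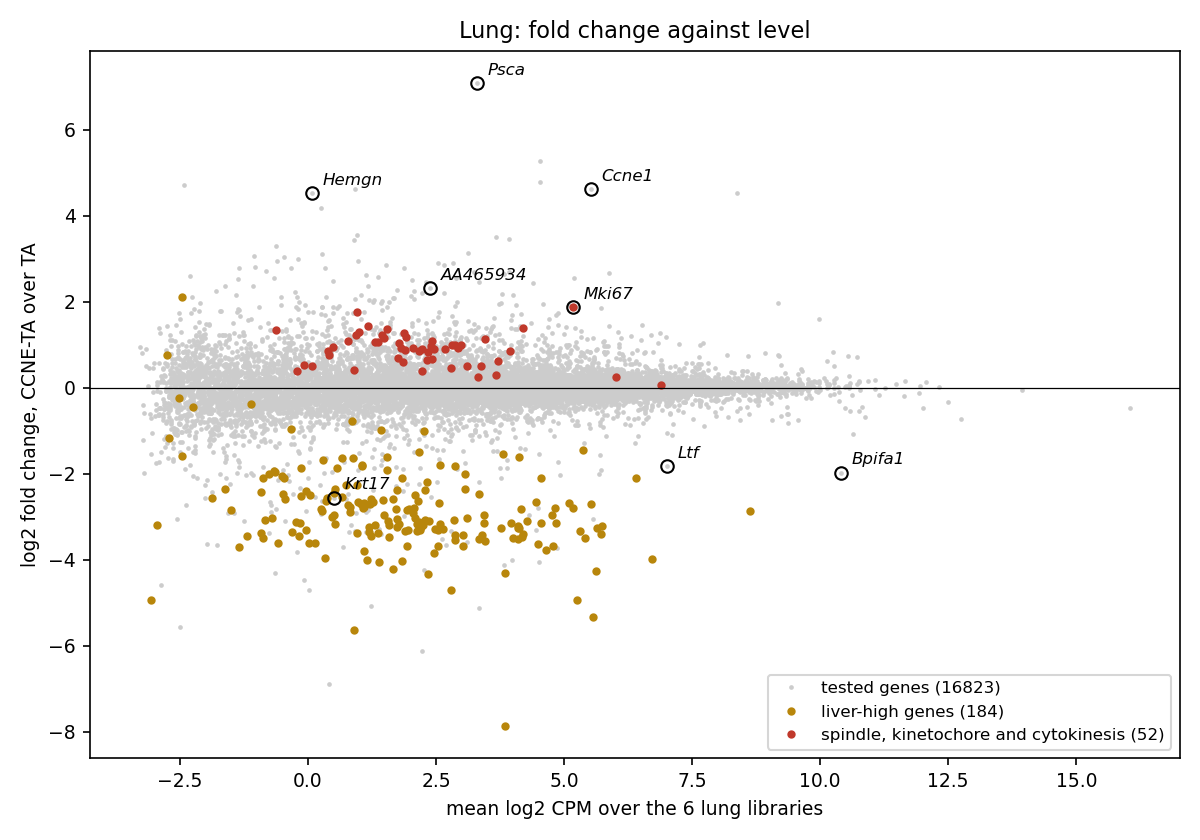
Log2 fold change (CCNE-TA over TA) against mean log2 CPM for the 16823 genes tested in lung, 1 point per gene, with the 184 liver-high genes in ochre and the 52 spindle, kinetochore and cytokinesis genes in red. Psca lies at 7.09 and Ccne1 at 4.61, all 52 red points lie above 0, and 182 of the 184 ochre points lie below 0.

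Mitotic genes were higher in induced lung as a group, with small fold changes. Of 52 tested genes of the spindle, kinetochore and cytokinesis, all had a log2 fold change above 0, against 9057 of all 16823 genes, and their median was 0.90 against 0.02 for all genes. The groups did not overlap for 43 of the 52 in the higher direction and for none in the lower, while 3.3% of all tested genes were higher without overlap. None passed the edgeR test of lung alone, 27 had an unadjusted p under 0.05, and DESeq2 called 2 higher. Over all genes, 1.07% were higher at an unadjusted p under 0.05 in edgeR, and DESeq2 called 0.0899% higher. The list of 25 mitotic kinases, cyclins and activators had a median of 0.75, with 15 members higher without overlap and 1 called by DESeq2. These lists and all others below were chosen with earlier results of these data known, and their counts and medians are descriptions.

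Mki67, which encodes the Ki-67 protein that coats mitotic chromosomes and is absent from resting cells, had the lowest p of these genes. It was 66.3, 42.9 and 60.6 CPM in CCNE-TA 1, 2 and 3 and 13.6, 18.9 and 13.7 CPM in TA 1, 2 and 3. The lowest induced lung, CCNE-TA 2, lay above the highest control, TA 2, and neither of these is a library that stood apart. The log2 fold change was 1.88 ± 0.22, with an adjusted p of 0.607 in edgeR, 2.87e-10 in DESeq2 and 0.038 in the fit of 18 libraries, and 1.67 without CCNE-TA 1 and TA 3. The lung effect on Mki67 differed from that in liver by -0.67 ± 0.54 (adjusted p = 0.416) and from that in kidney by -0.05 ± 0.54 (adjusted p = 1), so no difference between tissues passed the test.

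Ube2c, the ubiquitin-conjugating enzyme that works with the anaphase-promoting complex, was 11.5, 9.24 and 12.1 CPM in CCNE-TA and 4.46, 4.43 and 2.42 CPM in TA (log2 fold change 1.54 ± 0.30, DESeq2 adjusted p = 0.000385). Psrc1, a spindle protein and p53 target, was 3.99, 2.76 and 4.48 CPM against 1.89, 1.43 and 1.51 CPM (1.22 ± 0.30, DESeq2 adjusted p = 0.0166). Ccnb1, which encodes cyclin B1, the partner of CDK1 at mitotic entry, was 9.92, 4.55 and 3.59 CPM against 1.79, 2.4 and 2.17 CPM (1.51 ± 0.43), and passed no correction. In all 3 the groups did not overlap. Of the exon bases of Ube2c, 22.8% are shared with Tnnc2, a troponin gene of skeletal muscle on the other strand, and the library kit does not mark strand. Skeletal muscle genes summed to 844.4, 1046.7 and 48.1 CPM in CCNE-TA 1, 2 and 3 and to 769.8, 33.2 and 2373.4 CPM in TA 1, 2 and 3. The part of Tnnc2 reads in the Ube2c values was not tested. Further members were more graded: Ccnb2 (1.04 ± 0.33), Tpx2 (0.99 ± 0.29), Prc1 (0.98 ± 0.32), Cenpf (0.89 ± 0.27) and Cdc20 (0.71 ± 0.23) were all higher without overlap and passed neither edgeR fit nor DESeq2. They encode a second B-type cyclin, a spindle assembly factor, a midzone bundling protein, a kinetochore protein and the activator of the anaphase-promoting complex.

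The promoters of these genes are shown because the mitotic genes lay together above 0 and their shared elements can be read in the sequence. Each run is the 250 bases before the annotated start, from RefSeq on GRCm38.p6, written 5′ to 3′ on the gene's strand, with capitals for a CHR match, whose letters are TTTGAA, or a CCAAT box, whose letters are in its name. Both strands were searched, so either element can also appear in the capitals as its reverse complement.
Mki67 (chr7:135716380-135716629, minus strand): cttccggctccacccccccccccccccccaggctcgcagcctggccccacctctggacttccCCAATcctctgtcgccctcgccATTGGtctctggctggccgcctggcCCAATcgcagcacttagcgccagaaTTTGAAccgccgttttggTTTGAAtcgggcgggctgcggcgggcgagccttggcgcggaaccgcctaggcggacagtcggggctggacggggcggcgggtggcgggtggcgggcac
Ube2c (chr2:164769679-164769928, plus strand): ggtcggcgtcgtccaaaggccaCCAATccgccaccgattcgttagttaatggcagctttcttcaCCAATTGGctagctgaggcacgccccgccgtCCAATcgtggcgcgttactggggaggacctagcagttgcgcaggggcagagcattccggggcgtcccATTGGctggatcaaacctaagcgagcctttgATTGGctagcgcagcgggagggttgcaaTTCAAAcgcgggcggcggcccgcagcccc
Ccnb1 (chr13:100786487-100786736, minus strand): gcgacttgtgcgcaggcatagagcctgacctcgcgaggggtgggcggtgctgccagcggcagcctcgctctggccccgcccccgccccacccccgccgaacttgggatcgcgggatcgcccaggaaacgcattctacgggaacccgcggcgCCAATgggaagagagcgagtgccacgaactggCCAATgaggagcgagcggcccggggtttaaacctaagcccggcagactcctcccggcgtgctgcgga
The Mki67 run holds 3 CCAAT boxes and 2 CHR matches, the Ube2c run 6 CCAAT boxes, 2 of them overlapping by 2 bases, and 1 CHR match, and the Ccnb1 run 2 CCAAT boxes and no CHR match. Of the 77 tested genes of both mitotic lists, 63 had a promoter in the table. Over the whole window of 300 bases (250 before and 50 after the start), 45 of the 63 (71.4%) held a CHR match and 48 (76.2%) a CCAAT box, against 20.1% and 41% of all 26742 genes with a promoter. The E2F letters TTTCCCGC, TTTCGCGC, TTTGCCGC or TTTGGCGC were in 6 of the 63 (9.52%), against 2.63% of all genes. A match is a string of letters, not a measured site.

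The mitotic difference was smaller without the libraries that stood apart. CCNE-TA 1 held the highest value of 48 of the 52 spindle, kinetochore and cytokinesis genes, and TA 3 held the lowest of 31. Among all 16823 tested genes these counts were 4687 and 3899. Without these 2 libraries, the median of the 52 was 0.42 in place of 0.90, 51 of 52 were still above 0, and 43 were higher without overlap, against 19.6% of all genes in a comparison of 2 against 2. Leaving out 1 library at a time gave medians between 0.50, without CCNE-TA 1, and 1.08. The median of the mitotic kinase list was 0.35 without both libraries. Within the Xist-high libraries, CCNE-TA 1 and 2 against TA 1 and 2, 45 of the 52 were higher without overlap, against 4145 of all 16823 tested genes. Between the 2 male-pattern libraries 51 of the 52 were higher in CCNE-TA 3, against 8539 of all 16823. In the other tissues the same list had median log2 fold changes of 2.12 in liver and 1.53 in kidney.

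**Figure D3:**
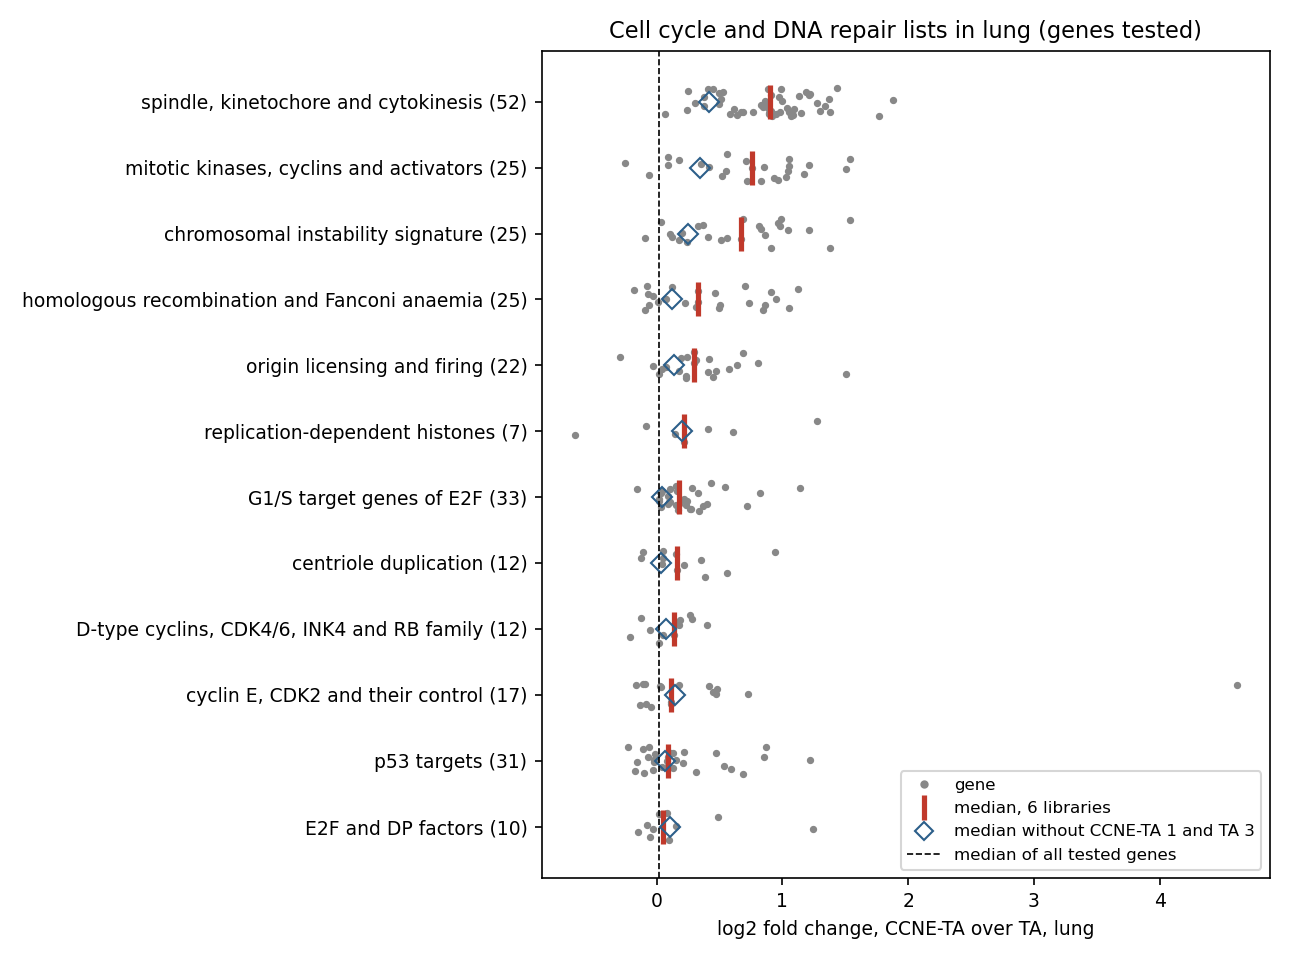
Log2 fold change (CCNE-TA over TA) of each tested gene of 12 cell cycle and DNA repair lists in lung, with a red bar at the median over 6 libraries, a blue diamond at the median without CCNE-TA 1 and TA 3, and a dashed line at the median of all tested genes. The spindle, kinetochore and cytokinesis list has the highest median, at 0.90, which becomes 0.42 without the 2 libraries.

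Genes earlier in the cycle differed less. In the counts that follow, the share of all tested genes higher without overlap was 3.3%, and the share lower was 4.59%. The 33 G1/S targets of E2F had a median log2 fold change of 0.18, with 6 higher without overlap and none lower, and their median was 0.04 without CCNE-TA 1 and TA 3. Rrm2, a subunit of ribonucleotide reductase, was 17.5, 8.15 and 9.24 CPM in CCNE-TA and 5.44, 6.22 and 4.12 CPM in TA (1.14 ± 0.35), and Lig1, the DNA ligase of replication, differed by 0.43 ± 0.18. Both were higher without overlap in this list, and neither passed edgeR or DESeq2. The 22 genes of origin licensing and firing had a median of 0.30 with 9 higher without overlap, among them Mcm7 (0.24 ± 0.12) of the replicative helicase and Topbp1 (0.24 ± 0.12), which helps fire origins and activates ATR. Mcm3 (0.47 ± 0.21) overlapped between groups. The E2F and DP factors had a median of 0.05, and E2f8, an atypical repressor of the family, was the one with an unadjusted p under 0.05 (1.24 ± 0.48), with 11.2% of its exon bases shared with another gene. Beside Ccne1, the 17 genes of cyclin E, CDK2 and their control held 1 more that was higher without overlap, Cks1b (0.48 ± 0.24), a small CDK-binding subunit, while Ccna2, which encodes cyclin A2, overlapped (0.73 ± 0.34).

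DNA repair, centriole and p53 genes were examined next. For scale, 3.3% of all tested genes were higher without overlap and 4.59% lower. Of 25 genes of homologous recombination and the Fanconi anaemia pathway, 6 were higher without overlap, with a median of 0.33, or 0.12 without the 2 libraries. Rad54b, a helper of strand exchange, differed by 0.85 ± 0.36. Of 12 centriole duplication genes, 3 were higher without overlap, among them Plk4 (0.56 ± 0.24), the kinase that starts duplication, and Stil (0.94 ± 0.44), its partner. The 31 tested p53 targets had a median of 0.09, with 3 higher and 1 lower without overlap. The 3 higher were Psrc1, Ckap2 (0.69 ± 0.29) and Gtse1 (0.87 ± 0.41), which also serve in mitosis. The same list had medians of 1.13 in liver and 0.48 in kidney. Phlda3, a p53 target that restrains AKT, was 51, 54.7 and 65.9 CPM in CCNE-TA lung and 59.9, 65.6 and 68.3 CPM in TA lung, with a log2 fold change of -0.16 in lung and 3.47 in liver in the fit of 18 libraries. The difference, lung minus liver, was -3.63 ± 0.32 (edgeR, adjusted p = 7e-05).

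AA465934, an annotated non-coding processed transcript (chromosome 11, 83291699 to 83294632, plus strand, mm10), was higher in induced lung. It was 4.77, 10.3 and 11 CPM in CCNE-TA 1, 2 and 3 and 2.14, 2.54 and 0.543 CPM in TA 1, 2 and 3. The groups did not overlap, and here CCNE-TA 1 was the lowest of the induced lungs. The log2 fold change was 2.31 ± 0.62, called by DESeq2 (adjusted p = 0.014) and by the fit of 18 libraries (0.0321) and not by edgeR on lung alone. Scaled by total counts it was 0.242 to 0.324 CPM in TA liver against 4.96 to 5.76 CPM in CCNE-TA liver, and 2.41 to 2.9 CPM in TA kidney against 14.3 to 17.2 CPM in CCNE-TA kidney. The lung effect differed from that in liver by -1.72 ± 0.62, with an adjusted p of 0.0762 in edgeR and 0.0308 in DESeq2, and from that in kidney by -0.21 ± 0.59 (edgeR, adjusted p = 1).

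Some transcripts of the red cell lineage were higher, while the summed level of the list overlapped. Slc4a1, which encodes the band 3 anion exchanger of the red cell membrane, was 10.2, 9.13 and 13.5 CPM in CCNE-TA and 2.61, 0.862 and 1.06 CPM in TA (2.85 ± 0.48, adjusted p = 1.8e-06 in DESeq2 and 0.0131 in the fit of 18 libraries). Hemgn, a nuclear protein of blood progenitors that was picked here after its values were seen, was 1.39, 1.89 and 2.56 CPM against 0.125, 0.0663 and 0.0494 CPM (4.53 ± 0.50, adjusted p = 2.3e-10 in DESeq2 and 0.0187 in the fit of 18 libraries). In both genes the groups did not overlap and TA 3 or TA 2 was lowest. Rhag, of the Rh complex of red cells, was 0.288, 0.242 and 0.368 CPM against at most 0.0265 CPM. Alas2, the haem synthesis enzyme of red cell precursors and also picked after its values were seen, overlapped, at 95.6, 53.8 and 68.2 CPM in CCNE-TA and 99.9, 43.2 and 88.6 CPM in TA. Of the 11 tested erythroid and platelet genes, 3 were higher without overlap, against 3.3% of all tested genes, and none was called by edgeR on lung alone. The median was 0.59, and as low as -0.05 with 1 library left out. CCNE-TA 3 held the highest value of 9 of the 11, against 3234 of all 16823 tested genes. Median ratios of CCNE-TA over TA were 1.04 in the Xist-high libraries and 2.81 in the male-pattern pair. The sum of the 11 was 143.4, 149.6 and 244 CPM in CCNE-TA and 198.7, 103.6 and 137.7 CPM in TA. Hemgn was at 0 in the 3 TA livers against 0.094 to 0.305 CPM in CCNE-TA, and at most 0.0463 CPM in TA kidney against 0.347 to 0.393 CPM in CCNE-TA.

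Genes of neutrophils, T and NK cells, chemokines and antigen presentation were mostly highest in 1 induced lung, CCNE-TA 1. Neutrophil genes summed to 1319.6 CPM in CCNE-TA 1 and to 370.4 and 382.9 CPM in CCNE-TA 2 and 3. In TA lungs the sum was 431.6 to 615.2 CPM, above CCNE-TA 2 and 3. By mean log2 CPM the order was reversed: CCNE-TA 2 and 3 were at 3.04 and 2.97, against 2.13 to 2.65 in TA. Alveolar macrophage genes summed to 4601.4 CPM in CCNE-TA 1 and between 997.9 and 1420 CPM elsewhere, but only 9 of 17 had their highest value in CCNE-TA 1. Monocyte and interstitial macrophage genes summed highest in TA 3, at 3510.8 CPM against 3264.4 CPM in CCNE-TA 1, although 16 of 19 had their highest value in CCNE-TA 1. All 26 T and NK cell genes, 25 of 26 chemokine and cytokine genes, 17 of 18 antigen presentation genes and 12 of 15 neutrophil genes had their highest value in CCNE-TA 1. The same held for 4687 of all 16823 tested genes. Medians over all 6 libraries were 2.07 for neutrophils, 0.99 for T and NK cells, 1.07 for chemokines and 0.73 for antigen presentation, and 0.56, 0.09, -0.09 and 0.04 without CCNE-TA 1 and TA 3. The mitotic lists were highest in the same library, and the part of leukocytes in the mitotic difference was not tested.

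S100a9, a calcium-binding protein of neutrophils, was 241, 36.1 and 25.3 CPM in CCNE-TA and 19.7, 20 and 8.19 CPM in TA (2.66 ± 0.93), and 0.63 on the log2 scale without the 2 libraries. S100a8, its partner, was 146, 26.1 and 15.1 CPM against 13.6, 14.6 and 3.7 CPM, and Cxcr2, a neutrophil chemokine receptor, was 41.1, 4.45 and 3.3 CPM against 2.26, 3 and 2.32 CPM. In these genes the groups did not overlap, but CCNE-TA 2 and 3 lay close to the controls. Among genes called by DESeq2, Retnlg of neutrophils was 54.6, 9.7 and 8.94 CPM against 4.33, 5.2 and 2.22 CPM (adjusted p = 0.0228), and Gzmb, a granzyme of cytotoxic cells, was 14.5, 2.9 and 3.29 CPM against 1.41, 1.58 and 1.36 CPM (adjusted p = 0.046). Prf1, Gzma and Nkg7 of the same cells were higher without overlap and were not called, and Ccl5, a T cell chemokine, was 50.6, 20.3 and 19.6 CPM against 12.6, 12.4 and 7.16 CPM. Saa3, an acute-phase protein, was 74.1 CPM in CCNE-TA 1 and 3.75 and 5.64 CPM in CCNE-TA 2 and 3, against 1.58 to 3.25 CPM in TA.

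Interferon-stimulated genes had a fold change above 0 in 27 of 28, with a median of 0.56, and the median was 0.14 without the 2 libraries. Of the 28, 6 were higher without overlap, against 3.3% of all tested genes. Xaf1 was 70.2, 38.8 and 71.5 CPM against 31.9, 29.5 and 20.8 CPM (1.14 ± 0.28, DESeq2 adjusted p = 0.0272), with CCNE-TA 1 and 3 alike. Rsad2 (1.38 ± 0.39) and Ifit3 (0.57 ± 0.17) were higher without overlap, and Cxcl9, an interferon-gamma chemokine, was 122, 10.1 and 0.854 CPM against 0.888 to 2.02 CPM and overlapped. H2-D1 (0.51 ± 0.18) and Tap1 (1.05 ± 0.39) of class I antigen presentation were higher without overlap. B and plasma cell genes had 3 of 18 above 0 and a median of -0.29, or -0.85 without the 2 libraries. None was lower without overlap and 1 was higher, Prdm1, a regulator of plasma cells, and 12 of 18 were highest in TA 2. Between the male-pattern libraries 14 of the 18 were higher in CCNE-TA 3, against 8539 of all 16823 tested genes. Cd79a of the B cell receptor was 15.3, 14.5 and 23.5 CPM against 35.4, 55 and 15.3 CPM, so the groups overlapped at TA 3.

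**Figure D4:**
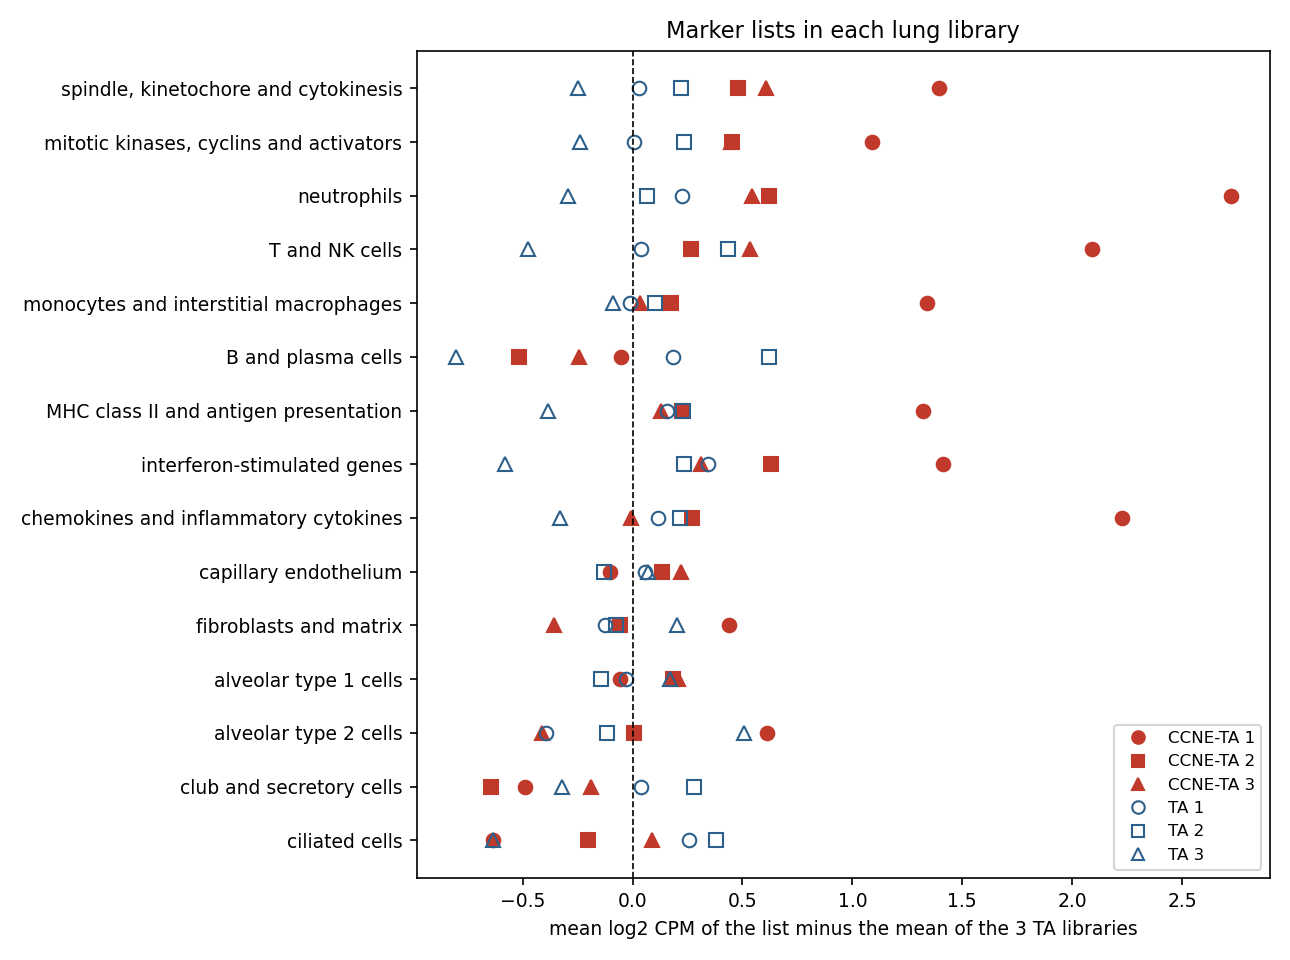
Mean log2 CPM of 15 marker lists in each lung library, less the mean of the 3 TA libraries, with CCNE-TA libraries as filled red and TA libraries as open blue markers, shaped by replicate. CCNE-TA 1 lies furthest right for both mitotic lists, for 6 leukocyte, interferon and chemokine lists, and for the alveolar type 2 and fibroblast lists. CCNE-TA 2 and 3 lie right of all TA libraries for the mitotic, neutrophil, alveolar type 1 and capillary endothelium lists.

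Genes of the resident cells of the alveolus lay close to the median of all genes over the 6 libraries. Medians were 0.03 over 17 alveolar type 2 genes, 0.10 over 14 alveolar type 1 genes and 0.07 over both 24 capillary endothelial and 26 fibroblast genes, with 0, 1, 0 and 0 genes higher without overlap and none lower. The 1 was Akap5, a kinase anchor, which differed by 0.26 ± 0.13. The shares of all tested genes were 3.3% higher and 4.59% lower without overlap. Without CCNE-TA 1 and TA 3 the median of the alveolar type 1 genes was 0.29, with 14 of 14 above 0 and 10 (71.4%) higher without overlap, against 19.6% of all genes. The median of the capillary genes was then 0.21, with 23 of 24 above 0 and 12 (50%) higher without overlap. The medians of the alveolar type 2 and fibroblast genes were 0.06 and -0.06. These lists changed direction between libraries. Their median ratios of CCNE-TA over TA were 1.42 and 1.25 in the Xist-high libraries, and 0.545 and 0.738 in the male-pattern pair. In that pair, 1 of 17 and 4 of 26 genes were higher in CCNE-TA 3. With 1 library left out, their medians ran from -0.25 to 0.33 and from -0.25 to 0.21. Type 1 ratios were 1.06 and 1.08, and capillary ratios 1.02 and 1.08.

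Several airway genes were lower in induced lung, but the direction of the airway lists was not the same in all libraries. Bpifa1, a secreted surface protein of the upper airway, was 161, 491 and 991 CPM in CCNE-TA and 1920, 2751 and 1819 CPM in TA, so every induced lung lay below every control (-1.98 ± 0.62, DESeq2 adjusted p = 0.0412, edgeR adjusted p = 1). Bpifb1, of the same family, was 324, 206 and 240 CPM against 389, 498 and 415 CPM (-0.76 ± 0.21), and Aldh1a1 of club cells was also lower without overlap (-0.54 ± 0.24). Of 19 club and secretory genes, 3 were lower without overlap and none higher, against 4.59% of all tested genes lower without overlap, and the median was -0.43. Their summed level overlapped, at 37563.5, 85185 and 97741.6 CPM in CCNE-TA and 113999, 122998 and 69311 CPM in TA. All 19 ciliated cell genes had a fold change below 0, with a median of -0.31, but none was free of overlap: Dnah5, a dynein arm of motile cilia, was 68, 83.5 and 94.9 CPM against 117, 131 and 83.4 CPM, and Hydin differed by -0.37 ± 0.16. Club and ciliated genes were lowest in CCNE-TA 1 for 12 of 19 and 11 of 19 members, against 4242 of all 16823 tested genes. Between the male-pattern libraries the direction was reversed: 19 of 19 ciliated genes and 13 of 19 club genes were higher in CCNE-TA 3 than in TA 3, with median ratios of 1.87 and 1.31. Among all 16823 tested genes, 8539 were higher in CCNE-TA 3. Between the Xist-high libraries the median ratios of CCNE-TA over TA were 0.61 and 0.609. Without CCNE-TA 1 and TA 3 the median log2 fold changes were -0.42 for ciliated and -0.38 for club genes, with 0 of 19 above 0 in each. Then 13 ciliated and 10 club genes were lower without overlap, against 3535 of all 16823 tested genes.

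Ltf and Krt17 were lower in induced lung with little spread. Ltf, which encodes lactoferrin, an iron-binding protein of neutrophil granules and of airway secretions, was 56.2, 42.5 and 69.9 CPM in CCNE-TA and 172, 250 and 179 CPM in TA. The groups did not overlap, and Ltf lay on the other side of 0 from the 10 neutrophil genes that were higher without overlap. Its log2 fold change was -1.84 ± 0.24, with an adjusted p of 0.656 in edgeR, 8.5e-09 in DESeq2 and 0.0921 in the fit of 18 libraries, and -1.91 without the 2 libraries. Krt17, a keratin of basal cells, was 0.395, 0.483 and 0.342 CPM against 1.92, 3.01 and 2.3 CPM (-2.56 ± 0.34, adjusted p of 0.656 in edgeR, 8.5e-09 in DESeq2 and 0.469 in the fit of 18 libraries).

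Hepatocyte transcripts were present in all 6 lungs and were lower in the induced group. The 327 liver-high genes summed to 840, 366 and 183 CPM in CCNE-TA 1, 2 and 3 and to 1238, 1877 and 7563 CPM in TA 1, 2 and 3, which is 0.0558% to 2.31% of their sum in TA liver. The groups did not overlap, and TA 3 alone held more than the other 5 lungs together. Of the 184 that were tested, 182 had a fold change below 0, with a median of -3.02, and 146 were lower without overlap, against 4.59% of all tested genes. The set was chosen by its levels in lung and liver. A gene could also pass the low-count filter through the TA lungs alone, so these counts are descriptions. None passed in edgeR, 84 were called lower by DESeq2 and 51 by the fit of 18 libraries. Over all genes, the latter 2 fits called 1.01% and 0.513% lower. Alb, which encodes serum albumin, was 204, 66.2 and 16.9 CPM against 265, 418 and 1402 CPM, while TA liver held 63960.8 to 107611 CPM by total counts. The 30 hepatocyte markers were all below 0, and Apoc3, an apolipoprotein, was 5.19, 4.86 and 1.97 CPM against 21.8, 30.9 and 66.7 CPM (-3.31 ± 0.56, adjusted p = 2.8e-07 in DESeq2). All of these 30 were highest in TA 3. How liver transcripts came to be in these libraries was not tested.

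The threshold of 100 left further liver genes among the other 16639. Of the 168 genes that DESeq2 called lower, 144 (85.7%) were at least 20 times higher in TA liver than in lung, and of the 88 called lower by the fit of 18 libraries 87 were, against 2.59% of all tested genes. The 144 and 87 include 84 and 51 of the liver-high genes already set apart, and the 2.59% includes all 184 of them that were tested. Mup14 and Mup20, which encode major urinary proteins made by the liver, are examples: Mup20 was 7.85, 3.67 and 0.749 CPM against 27.5, 47.1 and 88.3 CPM, and Mup14 was 26.4 CPM in TA 3 and at most 0.941 CPM elsewhere. Fabp1, a fatty acid-binding protein of liver that stands in both the hepatocyte and the alveolar macrophage list, was lower by -2.79 ± 0.64. Of the 180 genes with an unadjusted p under 0.05 that were higher in induced lung, 1 was at least 20 times higher in liver.

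The 1 gene called lower by the fit of 18 libraries outside that range was Cidea, a lipid droplet protein of brown fat. Cidea was 7.69, 2.85 and 4.9 CPM in CCNE-TA and 21.6, 14.3 and 30.6 CPM in TA (-2.10 ± 0.44, adjusted p = 0.0306 in that fit). Ucp1, the uncoupling protein that defines brown fat, was 4.25, 0.495 and 3.01 CPM against 34.2, 18.2 and 77 CPM (-4.05 ± 0.91, DESeq2 adjusted p = 4.8e-05), and Otop1 of the same tissue differed by -2.87 ± 0.54. Of 14 fat tissue genes, 6 were lower without overlap, against 4.59% of all tested genes. Heart genes were lower too: Nppa, the atrial natriuretic peptide, was 4.82, 15.2 and 10.4 CPM against 173, 31.9 and 48.1 CPM, and Nppb was at most 0.184 CPM against 0.494 to 3.67 CPM. Of the exon bases of Nppa, 61.5% are shared with another annotated gene. Of 19 heart muscle genes, 4 were lower without overlap and the median was -0.73, but their summed level overlapped, at 618.5 to 886.8 CPM in CCNE-TA and 701.7 to 1634.6 CPM in TA. Skeletal muscle genes overlapped as well, from 48.1 to 1046.7 CPM against 33.2 to 2373.4 CPM. The part of tissue taken along with the lung in these differences was not tested.

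**Figure D5:**
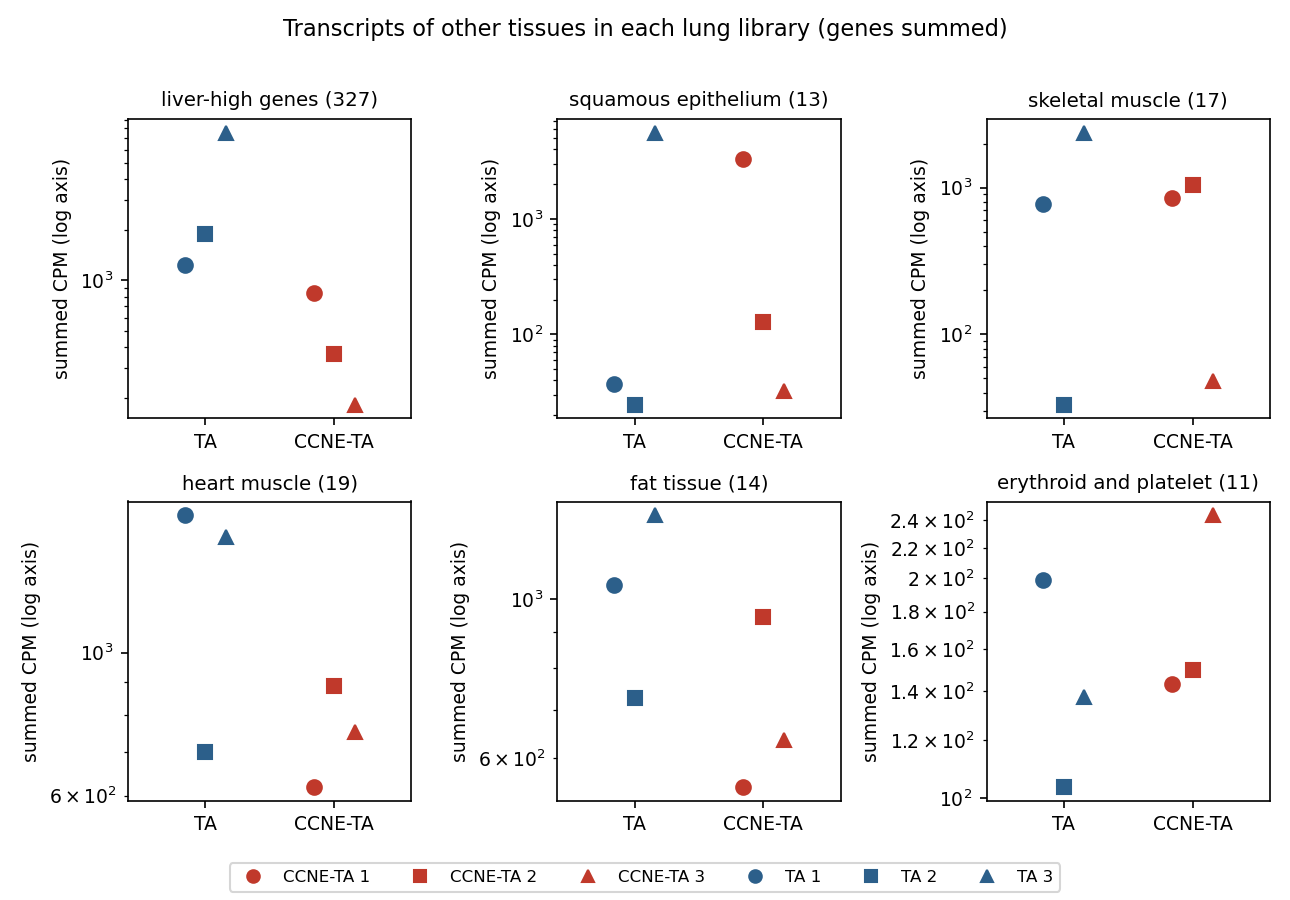
Summed CPM of the liver-high genes and of 5 lists of other tissues in each lung library, on log axes, with TA in blue, CCNE-TA in red and marker shapes for replicates 1 to 3. The liver-high genes lie between 183 and 840 CPM in CCNE-TA and between 1238 and 7563 CPM in TA without overlap, whereas the squamous, skeletal muscle, heart, fat and erythroid sums overlap between groups.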

How the data were processed

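The authors deposited unnormalized counts of reads for each gene symbol, 1 column per library. Per the submitters' processing notes, TopHat2 2.0.14, Bowtie2 2.2.6 and featureCounts 1.4.6 were used with mm10; the annotation and strand setting are not given in the sources used here. Per the labels' protocols the TruSeq RNA kit was used, which does not mark strand. All 18 columns were used and 0 were left out.

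Lung counts were filtered with filterByExpr, scaled by TMM and tested with the robust quasi-likelihood F test of edgeR 4.0.16 (R 4.3.3), fitted to the 6 lung libraries, with Benjamini-Hochberg adjustment over the 16823 genes and a threshold of 0.05. The test was checked on simulated counts. DESeq2 1.42.0, limma 3.58.1 (voom) and an edgeR fit of all 18 libraries were alternatives, the last also giving the differences between tissues. Levels in lung are CPM scaled by TMM over the lung libraries, and levels set across tissues are CPM by total counts. Depth ran from 41597623 to 155323865 counts per lung library. Non-overlap means that all 3 values of a group lay beyond all 3 of the other.

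The comparison, gene lists and named genes were chosen with earlier results of these data known. Named were Ccne1, Psca, AA465934, called genes, the largest fold changes without overlap, up to 4 members per list in order of p, liver-high genes and the leading differences between tissues; Hemgn, Alas2 and Kap were added after their values were seen. Promoters are from RefSeq. Replicate numbers were not used as pairs in the main fit. Some genes that the rule names are not reported here.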

Additional observations from a re-analysis of the deposited data

Results flagged for a closer look

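The effect of induction in lung differed from that in another tissue, by a test of the difference itself in the edgeR fit of 18 libraries, for Psca against kidney and for Ccne1 and 8 further genes against liver. The difference for Psca, lung minus kidney, was 6.62 on the log2 scale. For Ccne1, lung minus liver, it was -2.22. Over all genes, 1116 had a higher (6.51%) and 1068 a lower (6.23%) effect in lung than in liver.

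In 6 of the 8 genes the liver effect was the larger part and the lung libraries differed little. The differences, lung minus liver, were -3.63 for Phlda3, -4.60 for Gipc2, -3.81 for Ddit4l, -2.39 for Spint1, -3.47 for Mtmr11 and -3.66 for Ccdc120, with log2 fold changes in liver of 3.47, 4.30, 3.58, 2.36, 3.70 and 3.75. Ddit4l encodes an inhibitor of TOR signalling and Spint1 a membrane protease inhibitor. In lung, Gipc2 was 33.8, 49.2 and 56.2 CPM in CCNE-TA and 63, 66.2 and 44 CPM in TA, and Ccdc120 was 26.3 to 30.8 CPM against 26.4 to 29 CPM.

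Apoc4 (-4.57) and Gstm3 (-4.97) had fold changes of opposite sign in lung and liver. Apoc4, an apolipoprotein of liver, was 1.54, 1.35 and 0.762 CPM in CCNE-TA lung and 6.86, 8.8 and 16.8 CPM in TA lung, in the same order as the liver-high sums of the TA libraries. Gstm3, a glutathione transferase, was 2.55, 0.909 and 0.775 CPM against 4.18, 6.63 and 4.59 CPM. The log2 fold changes in liver were 1.44 and 3.14. The part of liver RNA in these lung values was not tested.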

How the results depend on the processing

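Psca was the only gene called higher, and none was called lower, with DESeq2 size factors in edgeR, library totals, either filter, thinning to the smallest library, Xist as a covariate, no robust option or the liver-high genes left out. Calls higher and lower were 15 and 168 in DESeq2, 4 and 5 in limma-voom with quality weights, 6 and 88 in the fit of 18 libraries, and 0 higher in limma-voom. With the liver-high sum as a covariate 10 were called higher; besides Psca these include squamous genes such as Lce1f and Csta1. Leaving out 1 library gave 0 to 1 higher. Ccne1 passed in DESeq2 (4.63), limma-voom with quality weights (4.06) and the fit of 18 libraries (4.62).

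A fit with the replicate block gave 0 higher and 0 lower. After the mean of each group was taken off, the log2 CPM of same-numbered lungs correlated at -0.477, -0.105 and -0.592. The labels do not say whether the numbers pair the animals. Lung minus liver gave 610 higher and 525 lower with the replicate block and 2051 lower in DESeq2; leaving out 1 library gave 314 to 1474 higher and 379 to 1330 lower. Lung minus kidney gave 6 higher and 114 lower in DESeq2, and 0 to 1 lower when leaving out 1 library. Liver-high genes numbered 648 at 20 times, 106 at 500 times and 1266 against the lowest lung. The cause of these differences was not tested.

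Of 73 named genes, 68 kept their direction in every alternative. The exceptions were Alb (0.17), Hsph1 (0.35), Mup14 (0.62), Spint1 (0.064) and Mtmr11 (-0.37) with the liver-high covariate, Spint1 (0.023) and Mtmr11 (-0.00257) with quality weights, and Spint1 without CCNE-TA 1 and TA 3 (0.068). Leaving out 1 library gave Spint1 -0.10 to 0.032. With 3 libraries per group and 1 male-pattern library in each, small fold changes are not resolved, and values near 0.07 CPM rest on few counts.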

Other observations

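Stress and metabolic lists did not share a direction. Of 26 immediate early genes, 22 had a fold change above 0, with a median of 0.21, 4 higher and 1 lower without overlap, and a median of -0.01 without CCNE-TA 1 and TA 3. The shares of all tested genes higher and lower without overlap were 3.3% and 4.59%. Of 25 heat shock and unfolded protein response genes, 5 were lower without overlap and none higher, with a median log2 fold change of -0.21. Hsp90aa1, a chaperone induced by heat, was 479, 686 and 534 CPM in CCNE-TA and 779, 905 and 1181 CPM in TA (-0.75 ± 0.22), and Hsph1, a partner of HSP70, was 92.6, 93.6 and 63.8 CPM against 104, 124 and 294 CPM (-1.06 ± 0.42). Neither passed edgeR or DESeq2. TA 3 held the highest value of 22 of the 25, against 3649 of all 16823 tested genes, and the median was -0.06 without CCNE-TA 1 and TA 3.

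All 24 tested subunits of oxidative phosphorylation had a fold change below 0, with a median of -0.13 and none without overlap, and CCNE-TA 1 was lowest in 17 of them. Of 28 cytosolic ribosomal protein genes, 22 had a fold change above 0, with a median of 0.05. Of 18 circadian clock genes, 12 were lowest in CCNE-TA 1, and none was without overlap between groups. The 17 fatty acid synthesis genes were highest in TA 3 for 13, with a median of -0.03. Among all 16823 tested genes, 4242 were lowest in CCNE-TA 1 and 3649 were highest in TA 3.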
